A study of Homo sapiens with 8 samples.

Results

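A set of 10 well-known target genes of p53 was followed in nascent RNA from DLD-1 and HCT116, which are established human colorectal cancer cell lines. The genes were CDKN1A, MDM2, BAX, BBC3, FAS, GDF15, TP53I3, SESN1, ZMAT3 and RRM2B. They were taken by symbol from the count tables of both lines, which makes 10 of 18638 gene models, and all 10 had reads in all 8 libraries. HCT116 cells carry wild-type p53 and DLD-1 cells carry mutant p53, so levels in untreated cells were compared as well as changes after treatment.

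The libraries were made by factory-seq, which frees RNA held at sites of transcription from DNase-treated nuclei, and formed 4 groups of 2. The DLD-1 cells were mAID-mClover-POLR2A (Tet-OsTIR1) cells, in which an auxin-inducible degron is fused to RPB1, the catalytic subunit of RNA polymerase II. They were either untreated or given auxin for 14 h. The HCT116 cells were untreated TOP2A-mAID cells, with the degron on topoisomerase IIα, or TOP2B-/- TOP2A-mAID cells, which also lack topoisomerase IIβ. For the latter group sample titles say control, but the treatment entry says auxin (14 h) and the column headers of the counts say aux. Genotype and auxin were therefore not separated. Per the labels, depletion used doxycycline for 24 h to induce TIR1 and then 500 µM auxin. The titles of all 8 libraries call the cells asynchronous, while the protocol also mentions sorting of G1 cells where applicable. The labels do not say whether untreated cells received doxycycline, whether that sorting was applied to these libraries, whether a line was 1 clone, or whether replicates were separate cultures. The p-values therefore measure only the spread between libraries, which may be technical.

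p53 is a transcription factor that is stabilised by DNA damage and other stress and binds response elements in its target genes. Its targets stop the cell cycle, start apoptosis, limit oxidative damage and supply nucleotides for repair. One of them, MDM2, encodes the ubiquitin ligase that degrades p53 and so closes a feedback loop. Many p53 mutants found in tumours bind these elements poorly.

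To show what p53 binding sequence lies near the start sites of these genes, RefSeq promoter windows of 300 bases (250 before to 50 after a start, GRCh38.p14) were searched for the consensus p53 response element, a palindrome of 20 bases in which the core C and G of each decamer were required. Windows existed for 9 of the 10 genes. With up to 3 mismatches 4 of the 9 held a match, against 1.37% of all 27305 symbols with a window, and with up to 2 mismatches 2 did, against 0.359%. The limits on mismatches were set after the matches were seen. The matches are printed 5′ to 3′ on the strand of the gene, with the core C and G in capitals. Each lies within the counted span of its gene. MDM2 and FAS had 2 mismatches each, and GDF15 and SESN1 had 3.
MDM2 (chr12:68808923-68808942, + strand): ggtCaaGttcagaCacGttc
FAS (chr10:88991309-88991328, + strand): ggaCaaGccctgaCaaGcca
GDF15 (chr19:18386186-18386205, + strand): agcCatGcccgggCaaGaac
SESN1 (chr6:109009018-109009037, - strand): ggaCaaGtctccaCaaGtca

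The MDM2 match lies 751 bases, the FAS match 778 bases and the SESN1 match 85468 bases into the counted gene model. Each of these lies in the window of a start site inside that model. The GDF15 match lies 28 bases into its model. A match describes letters in a window and does not show binding.

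Counts covered each gene from start to end, introns included. Library totals were 62626875 and 36906755 reads in the DLD-1 controls, 14183633 and 10739622 after auxin, and 32129400 to 36491540 in HCT116. Genes with almost no reads in one line were taken as silent and used to measure background reads in the other. At that density, background would make up 2.24% and 9.02% of the reads of the DLD-1 control libraries, 39.5% and 59.5% after auxin, and 0.266% to 3.04% in HCT116. All 10 colorectal epithelial markers had reads in every library, with summed levels of 3131 to 7364 normalised CPM (CPM, read counts scaled to a common library size, here after TMM scaling over 8 libraries). Between the control groups 28.5% of all genes were called higher in HCT116 and 17.5% lower. Of the epithelial markers, 1 was called higher (KRT19, log2 fold change 1.07), 5 were called lower and 4 were not called. Among those called lower, CDX2 was at 78.6 and 56.6 CPM in the DLD-1 controls but at 4.52 to 6.01 in HCT116, and VIL1 was at only 0.244 to 0.877 in HCT116. The 10 markers of other cells had a median of 0.691 to 1.11 times background in each library. Their summed level was 6.12 and 19.2 CPM in the DLD-1 controls, 147 and 149.8 after auxin, and 32.3 to 52.4 in HCT116, where COL1A1 made up most of it and CD3E was at 0 in 1 control. After auxin 8 of these 10 were called higher and 0 lower, beside 32.2% and 35.0% of all genes. PECAM1 alone had 90.2 and 71.1 CPM in the auxin libraries, at 4.81 and 2.49 times background, after 1.65 and 5.65 CPM in the controls. Of the 10 epithelial markers, 0 were called higher after auxin and 6 lower, with a median log2 fold change of -1.40. The part of these signals in the results below was not tested.

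**Figure D1:**
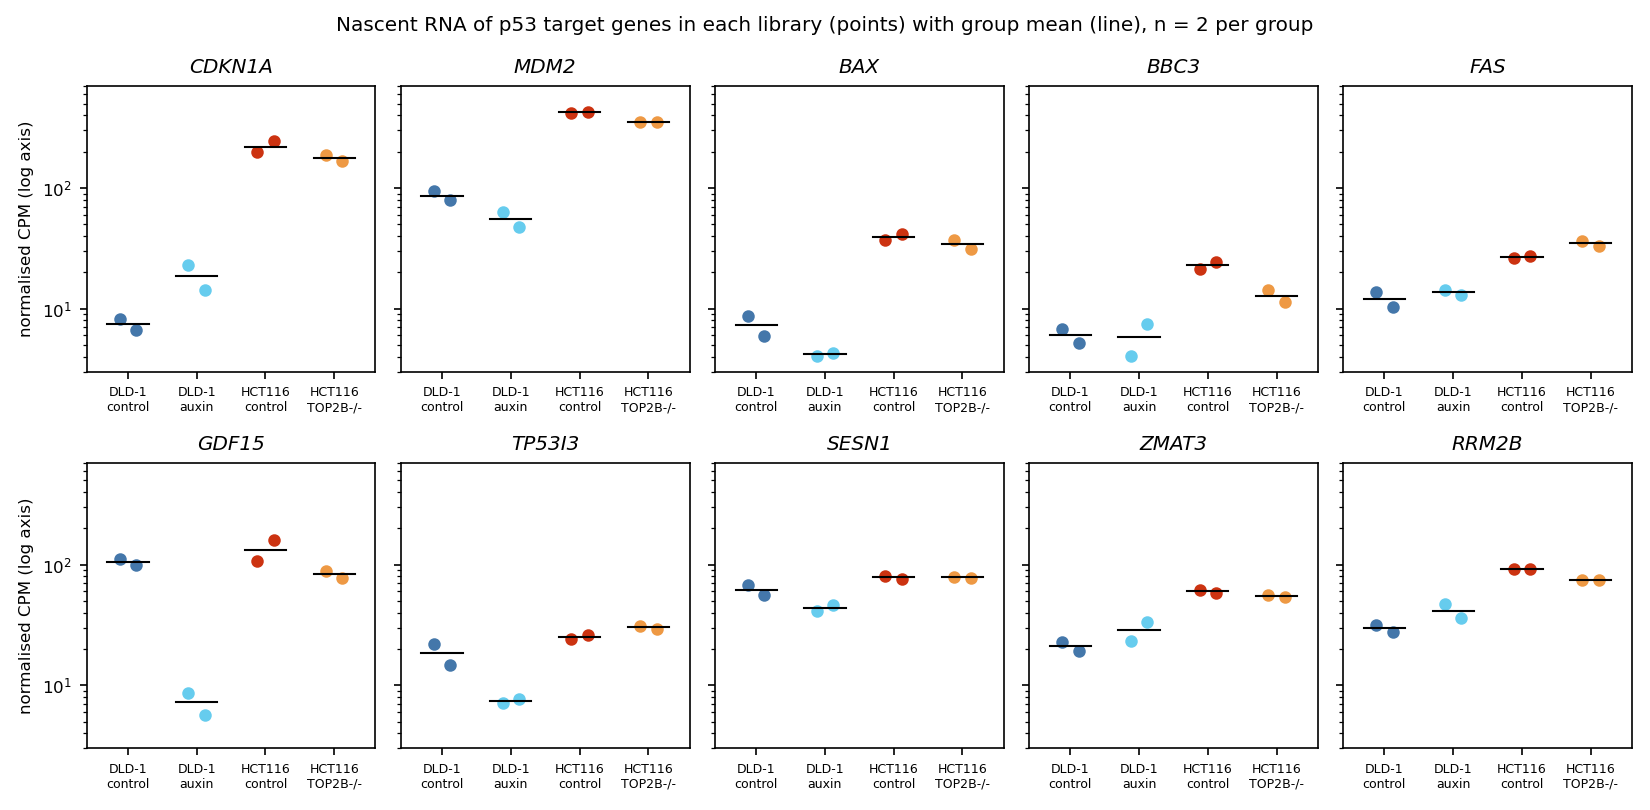
Normalised CPM (log axis) of each p53 target gene in each of the 8 libraries, as points, with group means as lines (n = 2 per group). CDKN1A and MDM2 stand far higher in HCT116 than in DLD-1, and GDF15 drops after auxin in DLD-1.

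The baseline comparison asked how levels of p53 targets differ between untreated cells of the p53 wild-type line and of the p53 mutant line. Of the 10 genes, 8 were higher in HCT116 controls than in DLD-1 controls (edgeR's quasi-likelihood test, Benjamini-Hochberg adjusted p under 0.05 over 15820 genes) and 0 were lower. Over all genes, 46.1% were called, 28.5% as higher and 17.5% as lower in HCT116. Among the 8, SESN1 did not pass under most alternative settings. The median log2 fold change of the 10 genes was 1.58, against 0.0014 over all genes. Cell line, tagged gene and count table, with any batch they carry, cannot be told apart in this comparison.

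CDKN1A (chr6:36676460-36687339, + strand) encodes p21, the inhibitor of cyclin-dependent kinases that carries out p53-dependent cell cycle arrest. It had 8.20 and 6.61 normalised CPM in the DLD-1 controls, from 398 and 255 reads, and 197 and 244 CPM in the HCT116 controls, from 5892 and 7988 reads. The groups were far apart, with a log2 fold change of 4.90 (SE 0.13, adjusted p = 0.00205), or 29.8-fold. By this value CDKN1A ranked 150 from the top of the 15820 genes tested.

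MDM2 (chr12:68808172-68845544, + strand), the feedback regulator of p53, was at 93.6 and 79.6 CPM in DLD-1 and at 418 and 426 CPM in HCT116. Every HCT116 control lay above every DLD-1 control, by 4.88-fold (log2 fold change 2.29, SE 0.07, adjusted p = 0.00205). Per kb of gene span, the mean level in the DLD-1 controls was 2.32 CPM for MDM2 and 0.681 CPM for CDKN1A.

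BAX, BBC3 and FAS, which act in apoptosis, were all higher in HCT116. BAX (chr19:48954860-48961798, + strand), which permeabilises the outer mitochondrial membrane, had 8.65 and 5.99 CPM in DLD-1 and 36.9 and 41.9 CPM in HCT116 (log2 fold change 2.45, SE 0.15, adjusted p = 0.00291). BBC3 (chr19:47220822-47232766, - strand), which encodes the BH3-only protein PUMA, had 6.84 and 5.16 CPM in DLD-1 and 21.5 and 24.5 CPM in HCT116 (log2 fold change 1.95, SE 0.16, adjusted p = 0.00401). FAS (chr10:88990531-89015785, + strand), the death receptor, showed a smaller difference, from 13.8 and 10.3 CPM to 26.2 and 27.2 CPM (log2 fold change 1.16, SE 0.13, adjusted p = 0.00663). In none of the 3 did the groups overlap. FAS overlaps ACTA2 on the opposite strand by 860 bases, and the sources used here do not give whether reads were counted by strand.

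RRM2B (chr8:102204501-102239118, - strand), the p53-inducible subunit of ribonucleotide reductase, had 31.7 and 27.4 CPM in DLD-1 and 91.9 and 91.6 CPM in HCT116 (log2 fold change 1.64, SE 0.08, adjusted p = 0.00243). ZMAT3 (chr3:179017225-179071868, - strand), which encodes an RNA-binding zinc finger protein, had 22.8 and 19.3 CPM against 62.0 and 58.6 CPM (log2 fold change 1.52, SE 0.10, adjusted p = 0.00327). Both were thus close to 3 times as high in the line with wild-type p53, with folds of 3.11 and 2.87.

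SESN1, TP53I3 and GDF15 differed least between the lines. SESN1 (chr6:108986437-109094505, - strand), a sestrin that restrains mTORC1 signalling and counters oxidative stress, had 67.4 and 56.4 CPM in DLD-1 and 80.8 and 75.6 CPM in HCT116. Its log2 fold change of 0.34 (SE 0.09) just passed the test (adjusted p = 0.0425). It did not pass under most alternative settings, among them scaling by library totals and subtraction of background. TP53I3 (chr2:24077433-24085215, - strand), which encodes a quinone oxidoreductase, had 22.1 and 14.8 CPM in DLD-1 and 24.1 and 26.2 CPM in HCT116 (log2 fold change 0.47, SE 0.15, adjusted p = 0.0718). All 7783 bases of TP53I3 lie within FAM228B on the opposite strand, so its reads are uncertain.

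GDF15 (chr19:18386158-18389176, + strand), a secreted cytokine of the TGF-β superfamily that responds to many stresses, was the only one of the 10 whose groups overlapped. It had 110.1 and 98.7 CPM in DLD-1 and 107 and 159 CPM in HCT116 (log2 fold change 0.34, SE 0.21, adjusted p = 0.237). When the TOP2B-/- group stood for HCT116, its log2 fold change was -0.24. The other 7 called genes, SESN1 aside, were called as higher in HCT116 under every alternative setting tried.

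**Figure D2:**
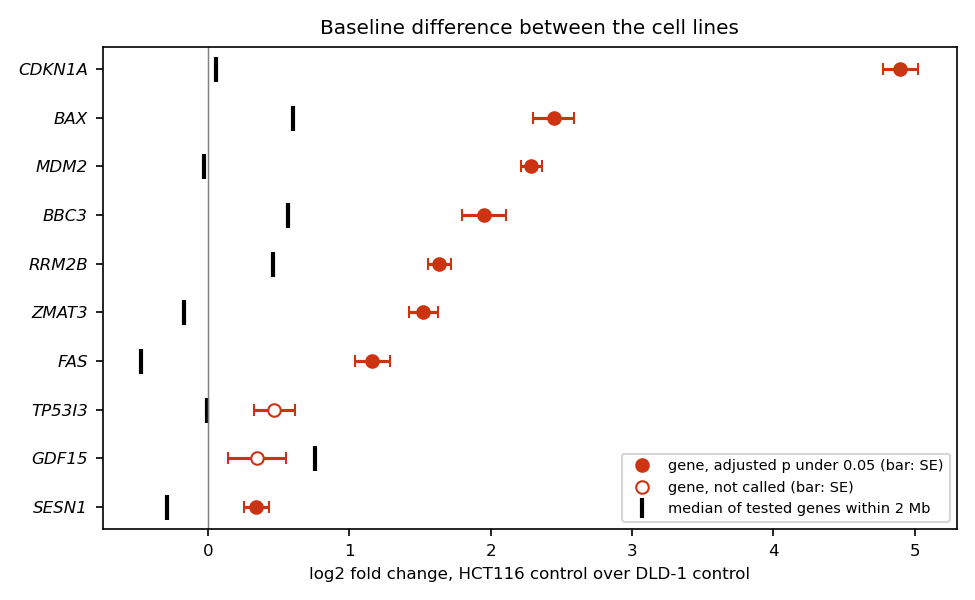
Log2 fold change of HCT116 control over DLD-1 control for each p53 target gene (point, bar for SE, filled where called) with the median of the tested genes within 2 Mb on each side (black tick). CDKN1A lies at 4.90 beside a neighbour median of 0.05, while GDF15 lies below the median of its neighbours.

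Each gene was also set beside its neighbours in the genome, to see whether the surrounding region differed between the lines in the same way. Copy number was not measured. Within 2 Mb on each side, the median log2 fold change was 0.05 over 47 tested neighbours of CDKN1A, -0.03 over 19 neighbours of MDM2 and -0.17 over 16 neighbours of ZMAT3. These 3 genes lay above each of their tested neighbours. For RRM2B the median was 0.46 over 19 neighbours, of which 1 was above it, and for FAS it was -0.47 over 28, of which 4 were above it. BAX and BBC3 share part of their surroundings on chromosome 19, where the medians were 0.60 over 126 neighbours and 0.57 over 111, with 13 and 14 above the respective gene. GDF15 lay below the median of 0.76 of its 98 neighbours, with 66 above it, and was the only 1 of the 10 to lie below its neighbour median.

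Levels were also ordered within each group per kb of gene span, since the spans ran from 3.02 kb for GDF15 to 108.07 kb for SESN1. In the HCT116 controls the order was GDF15 at 45.2 CPM per kb, CDKN1A at 20.3, MDM2 at 11.3, BAX at 5.68, TP53I3 at 3.23, RRM2B at 2.65, BBC3 at 1.94, ZMAT3 at 1.10, FAS at 1.06 and SESN1 at 0.724. Only ZMAT3 and FAS overlapped with their neighbour in this order. In the DLD-1 controls GDF15 also led, at 35.4 CPM per kb, followed by TP53I3 at 2.37 and MDM2 at 2.32, whose ranges overlapped. BAX at 1.05 overlapped with RRM2B at 0.853, and each gene from CDKN1A at 0.681 down through SESN1, BBC3 and FAS to ZMAT3 at 0.385 overlapped with the next. CDKN1A was thus in place 2 in the HCT116 controls and in place 6 in the DLD-1 controls. In the TOP2B-/- group it was in place 2 as well, at 16.3 CPM per kb. After auxin in DLD-1 it was also in place 2, at 1.72 CPM per kb, with a range that overlapped those of GDF15 and MDM2.

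The difference extended to other genes of the pathway. Of 45 further p53 target genes, 31 were called higher (68.9%) and 3 lower (6.67%) in HCT116, beside 28.5% and 17.5% of all genes. Their median log2 fold change was 1.30. The 3 with the largest called change were PHLDA3, an inhibitor of AKT signalling (log2 fold change 5.06, SE 0.21), BTG2, an antiproliferative gene (4.31, SE 0.21), and TP53INP1, which promotes p53 activity (4.12, SE 0.10). BTG2 had 1.26 and 0.907 CPM in the DLD-1 controls and 19.5 and 23.2 in the HCT116 controls. PHLDA3 likewise had less than 1 CPM in each DLD-1 control, at 0.886 and 0.700, and 23.3 and 29.6 in HCT116.

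Of 20 listed regulators or relatives of p53, 6 were called higher and 3 lower in HCT116, beside 28.5% and 17.5% of all genes. Their median log2 fold change was 0.03. CDKN2A, which encodes p16 and the MDM2 inhibitor ARF, was higher (4.25, SE 0.55). MDM4, the inhibitor of p53 related to MDM2, was higher by 0.84 (SE 0.06), and the coactivator EP300 was lower (log2 fold change -0.79, SE 0.09).

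**Figure D3:**
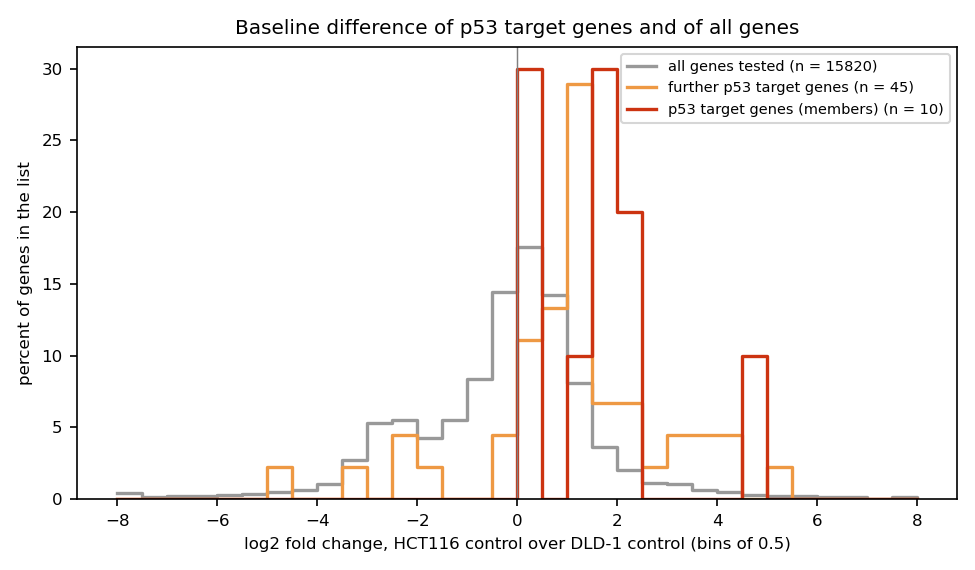
Percent of genes in each bin of log2 fold change of HCT116 control over DLD-1 control, in bins of 0.5, for all 15820 genes tested, the 10 p53 target genes and 45 further p53 target genes. Both lists lie mostly to the right of 0, with medians of 1.58 and 1.30 against 0.0014 for all genes.

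The comparison in DLD-1 asked how the p53 targets fared when RPB1 was targeted for degradation. Of the 10 genes, 1 was called higher after auxin (CDKN1A) and 4 lower (GDF15, TP53I3, and also MDM2 and SESN1, whose direction turned under another setting given below), beside 32.2% called higher and 35.0% called lower over the 17625 genes tested, 67.3% in all. The median log2 fold change of the 10 genes was -0.37 and that of all genes -0.06. Counts are relative to the rest of each library, so a fall in all RNA together would not show. Fewer cells and less RNA per cell cannot be told apart either. Scaling by library totals moved the median of all genes to 0.57.

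GDF15 showed the strongest change. It had 110.1 and 98.7 CPM in the controls and 8.69 and 5.70 CPM after auxin, and thus fell in both auxin libraries. The log2 fold change was -3.94 (SE 0.30, adjusted p = 0.00421), which is 15.4-fold lower and ranked 30 from the bottom of 17625 genes. All 102 tested neighbours of GDF15 within 2 Mb lay above it. It was called lower under every alternative setting. What was left remained above background, at 11.2 and 4.86 times.

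TP53I3 fell from 22.1 and 14.8 CPM to 7.14 and 7.63 CPM (log2 fold change -1.39, SE 0.25, adjusted p = 0.0134), and also lay below all of its 23 tested neighbours. With background subtracted its value was -0.64 and was not called. MDM2 had 93.6 and 79.6 CPM in the controls and 63.0 and 47.9 CPM after auxin (log2 fold change -0.73, SE 0.22, adjusted p = 0.0373). Its value was -0.10 with library totals and turned to 0.22 with background subtracted, neither of them called. SESN1 went from 67.4 and 56.4 CPM to 41.2 and 46.3 CPM (log2 fold change -0.59, SE 0.16, adjusted p = 0.0296), but its value was 0.044 with library totals and -1.69 with background subtracted, neither of them called. MDM2 and SESN1 were each not called when any 1 of the 4 libraries was left out, and TP53I3 was not called without either auxin library.

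CDKN1A was the only gene of the 10 called higher after auxin. It had 8.20 and 6.61 CPM in the controls and 23.1 and 14.3 CPM after auxin (log2 fold change 1.26, SE 0.35, adjusted p = 0.0319), which is 2.39-fold and does not overlap. These levels remained far below the 166 to 244 CPM of the HCT116 libraries. The log2 fold change was 1.89 with library totals and 2.32 with background subtracted, both called. It was 0.92 without auxin library 1 and 1.59 without auxin library 2, neither of them called. Of the 49 tested neighbours of CDKN1A, 16 lay above it.

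The other 5 genes were not called. BAX had 8.65 and 5.99 CPM in the controls and 4.08 and 4.28 after auxin (log2 fold change -0.89, SE 0.32, adjusted p = 0.0592). BBC3 had 6.84 and 5.16 CPM and then 4.08 and 7.49 (-0.15, SE 0.40, adjusted p = 0.746), and FAS had 13.8 and 10.3 CPM and then 14.4 and 12.9 (0.10, SE 0.25, adjusted p = 0.732). For these last 2 genes the groups overlapped. RRM2B had 31.7 and 27.4 CPM and then 47.0 and 36.2 (0.41, SE 0.23, adjusted p = 0.168), and ZMAT3 had 22.8 and 19.3 CPM and then 23.4 and 33.7 (0.34, SE 0.24, adjusted p = 0.251). Both were thus higher in each auxin library than in each control without passing the test. With library totals FAS (0.74), RRM2B (1.04) and ZMAT3 (0.98) were called higher, beside 42.8% of all genes called higher, 19.2% lower and 62.0% in all. With background subtracted RRM2B was called higher (1.31), beside 27.7% of 14355 genes called higher, 32.1% lower and 59.8% in all.

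How much of each value after auxin stood above background differed between the genes. Among silent genes themselves, 95% had less than 2.22 times background in auxin library 1 and less than 1.70 times in auxin library 2. CDKN1A (8.08 and 3.30 times), MDM2 (6.42 and 3.22), GDF15 (11.2 and 4.86), TP53I3 (3.49 and 2.46) and RRM2B (5.17 and 2.62) exceeded these levels in both. BAX (2.24 and 1.55) did so in 1 of them. BBC3 (1.31 and 1.58), FAS (2.17 and 1.28), SESN1 (1.45 and 1.08) and ZMAT3 (1.63 and 1.54) did so in neither, so their levels after auxin were not distinguishable from the spread of silent genes. In the controls of either line all 10 genes exceeded the corresponding level of silent genes in both libraries.

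**Figure D4:**
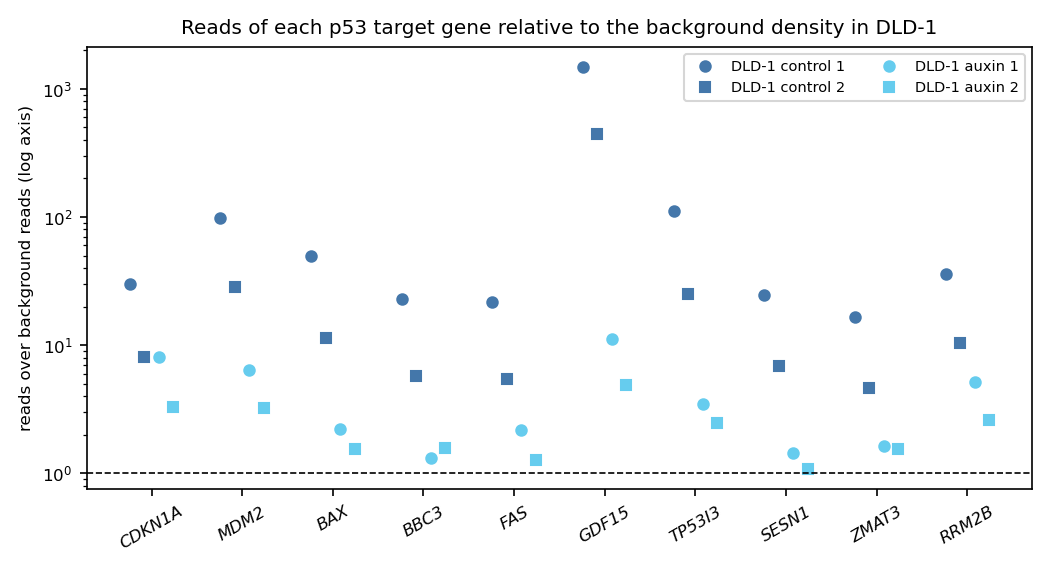
Reads of each p53 target gene divided by the background reads for its length (log axis) in the 4 DLD-1 libraries. Symbols mark the libraries and the dashed line marks a ratio of 1. After auxin, SESN1 lies at 1.45 and 1.08, near the line, whereas GDF15 lies at 11.2 and 4.86 after 1479 and 444 in the controls.

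Of the 45 further p53 targets, 7 were called higher (15.6%) and 16 lower (35.6%) after auxin, beside 32.2% and 35.0% of all genes. Their median was -0.05, against -0.06 over all genes. The largest called changes were those of CDIP1 (log2 fold change 3.04, SE 0.91), SPATA18 (2.76, SE 0.65) and SESN2 (-2.61, SE 0.40). In the auxin libraries CDIP1 had only 0.363 and 0.400 times, SPATA18 1.63 and 1.41 times and SESN2 0.257 and 0.124 times the background reads. All 3 thus ended within the range of silent genes.

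Of the 20 regulators and relatives of p53, 16 were called lower and 4 higher, beside 35.0% and 32.2% of all genes. Their median was -1.40. MDM4 fell (log2 fold change -2.52, SE 0.16), as did the coactivator CREBBP (-2.44, SE 0.17), whereas the p53 family member TP63 was called higher (2.61, SE 0.68) at 1.07 and 0.996 times background.

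In HCT116 the TOP2B-/- TOP2A-mAID group was compared with TOP2A-mAID controls, which asks how p53 targets differ in a line with wild-type p53 where TOP2B is knocked out and, if the treatment entry holds, TOP2A is degraded. By edgeR 0 of the 10 genes were called, beside 3.41% of 15273 genes, of which 1.75% were higher and 1.66% lower. At an unadjusted p under 0.05 there were 5, namely RRM2B, BBC3, FAS, MDM2 and TP53I3, beside 22.9% of all genes. DESeq2 called 5, with FAS higher and BBC3, GDF15, MDM2 and RRM2B lower, beside 15.3% of 12095 genes, of which 6.54% were higher and 8.76% lower. The median log2 fold change of the 10 genes was -0.18, against 0.03 over all genes, and 7 of the 10 lay below the median of their neighbours. The epithelial markers had a median of -0.55 in the same comparison, with 9 of 10 below 0 and 1 called, CDH1 (log2 fold change -0.69, adjusted p = 0.0255). Their part in these values was not tested.

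The group means of CDKN1A and MDM2 were lower in the TOP2B-/- group. CDKN1A had 197 and 244 CPM in the controls and 188 and 166 CPM in the TOP2B-/- group (log2 fold change -0.27, SE 0.15, adjusted p = 0.358). MDM2 had 418 and 426 CPM and then 355 and 353 CPM, close within each group (-0.21, SE 0.04, adjusted p = 0.103).

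Among BBC3, FAS and BAX the values went in different directions. BBC3 had 21.5 and 24.5 CPM in the controls and 14.2 and 11.3 CPM in the TOP2B-/- group (log2 fold change -0.81, SE 0.17, adjusted p = 0.0979). FAS had 26.2 and 27.2 CPM and then 36.5 and 33.1 CPM (0.43, SE 0.09, adjusted p = 0.101), with each TOP2B-/- library above each control. BAX had 36.9 and 41.9 CPM and then 36.8 and 31.5 CPM (-0.16, SE 0.13, adjusted p = 0.517). The upper TOP2B-/- library lay just under the lower control.

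GDF15 varied most between the controls, at 107 and 159 CPM, and was at 88.8 and 76.9 CPM in the TOP2B-/- group (log2 fold change -0.64, SE 0.24, adjusted p = 0.225). RRM2B had 91.9 and 91.6 CPM and then 74.6 and 73.8 CPM (-0.26, SE 0.04, adjusted p = 0.0659), the lowest adjusted p of the 10. TP53I3 had 24.1 and 26.2 CPM and then 31.1 and 29.3 CPM (0.31, SE 0.10, adjusted p = 0.189). ZMAT3 (-0.09, adjusted p = 0.342) and SESN1 (0.05, adjusted p = 0.525) changed by less than 0.1 on the log2 scale, and for SESN1 the groups overlapped. Without control 1, BBC3, CDKN1A (-0.45), GDF15 (-0.93), MDM2 and RRM2B were called lower by edgeR, beside 8.32% of 15743 genes called lower and 7.68% called higher.

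**Figure D5:**
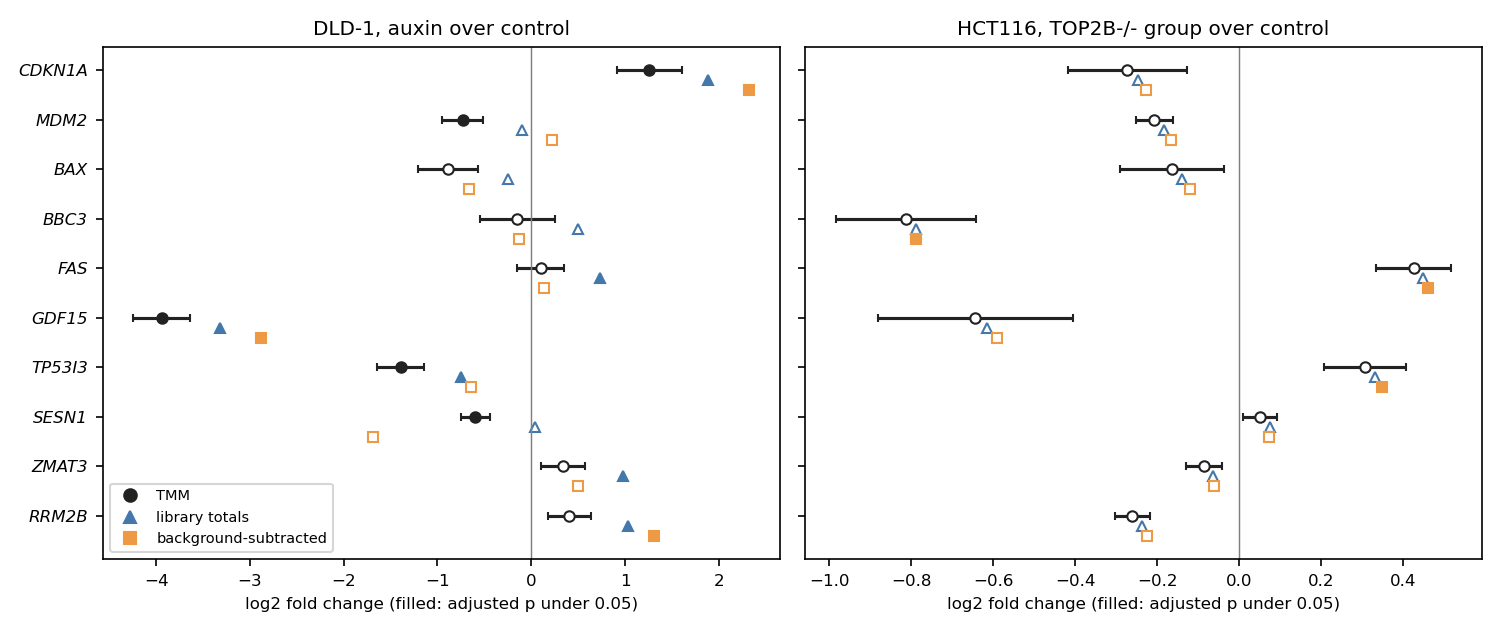
Log2 fold change of each p53 target gene under edgeR with TMM scaling and under alternative settings, with 1 panel per comparison and filled symbols where the adjusted p was under 0.05. In DLD-1, GDF15 stays far to the left in each setting, whereas MDM2 runs from -0.73 to 0.22.

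Of the further p53 targets, 1 of 45 was called higher in the TOP2B-/- group and 1 lower. Each is 2.22% of the list, beside 1.75% of all genes called higher and 1.66% lower. The decoy death receptor gene TNFRSF10C had 3.91 and 3.75 CPM in the controls and 13.3 and 12.3 CPM in the TOP2B-/- group (log2 fold change 1.79, SE 0.14, adjusted p = 0.0255). DDB2, a damage sensor of nucleotide excision repair, had 192 and 195 CPM and then 136 and 133 CPM (-0.48, SE 0.05, adjusted p = 0.0308). The median of the 45 was -0.12. Among the 20 regulators and relatives of p53, the kinase gene HIPK2 was the only one called higher (0.52, SE 0.04), 0 were called lower, and the median was 0.0062.

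Over all 8 libraries, the genes whose log2 CPM followed CDKN1A most closely were HMGA1 (Pearson r = 0.999), BTG2 (0.998) and BTBD19 (0.998), among 15178 genes tested in all 3 comparisons. Of the other 9 p53 targets RRM2B came nearest to CDKN1A, at 0.989 and place 57, and GDF15 was the least alike, at 0.393. For MDM2 the nearest were UAP1 (0.999), the p53 target AEN (0.999) and SKA2 (0.998), and BAX came nearest of the 9, at 0.993 and place 36. These values rest on 8 libraries of 2 cell lines and share the depth and background of those libraries.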

How the data were processed

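The authors deposited raw read counts per RefSeq gene model (GRCh38), in 1 table for each cell line and over the whole gene span, with 1443 models counted over less. STAR, DESeq2 and hg38 are named in the submitters' processing notes. Versions, counting settings and use of strand were not given in the sources used here. The authors' tables of changed genes (fold changes, p-values and normalized values) were not used. Gene positions were written 1-based. The paper supplied describes another experiment and gave no design.

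A comparison used only the 4 libraries of its groups, with 2 residual degrees of freedom, in edgeR 4.0.16 (quasi-likelihood test, R 4.3.3). Filtering used filterByExpr, which all 10 genes passed in all 3 comparisons, and scaling used TMM. Tests were two-sided, with Benjamini-Hochberg adjustment at 0.05 over all genes tested. SEs were derived from the F statistic. The code was tested on simulated data. Silent genes (3111) were the lowest 20% of models of at least 5000 bp by reads per kb in the other line's controls, within each chromosome, and their median count per base gave the background. Alternatives were DESeq2 1.42.0, library totals, other filters, background subtraction, 1 fit over 8 libraries, the replicate number as a block, leaving out each library (the lone library of a group was then assumed to vary like the other group), and the TOP2B-/- group standing for HCT116. Log2 CPM used a prior count of 2.

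The p53 targets and the gene lists were chosen with earlier results of these data known. Outside the 10 targets, the text names the 3 called genes of largest change in each pathway list and comparison, and the 3 genes most correlated with CDKN1A and with MDM2. Of the list of regulators, 1 gene is not reported here. Cell type markers named singly, overlapping genes and the other settings shown for a gene were picked after their values were seen.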

Additional observations from a re-analysis of the deposited data

How the results depend on the processing

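With 2 libraries per group, the number of calls moved with the settings far more than the baseline pattern did. At baseline, 7 to 9 of the 10 targets were called in every setting (7 with the replicate block, 9 with the TOP2B-/- group in place of the control), while genes called numbered 4105 with the block and 3869 to 6285 when 1 library was left out (3869 without HCT116 control 2), against 7286. Background subtraction gave 4629 higher and 4369 lower genes, against 4511 and 2775. GDF15 turned to -0.24 with the TOP2B-/- group in place of the HCT116 control.

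In DLD-1, 3 targets were called with background subtracted, 8 in the fit over 8 libraries, and 1 to 4 when 1 library was left out, with 1 without either auxin library and 3 without control 1. Genes called fell from 11855 to 2393 without auxin library 1 and 3165 without auxin library 2, and reached 12732 at most. Library totals gave 7544 higher and 3377 lower genes, against 5678 and 6177. The counts of targets and of genes called in the fit over 8 libraries are not reported here for DLD-1. Whether the targets responded more strongly than other genes was not tested. MDM2 turned to 0.22 with background subtracted, SESN1 to 0.044 with library totals, and BBC3 to 0.50 with library totals, 0.26 with a mean CPM of at least 5, 0.066 in the fit over 8 libraries and 0.29 without auxin library 1 (range -0.60 to 0.29 with 1 library left out).

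In HCT116, against 521 genes and 0 targets, DESeq2 called 1851 and 5, the CPM filter 1221 and 3, background subtraction 2289 and 3, and the fit over 8 libraries 5 genes. Leaving out 1 library gave 0 to 2519 genes and 0 to 5 targets, the most without control 1. With edgeR 0 genes were called without either TOP2B-/- library (2266 and 1286 at an unadjusted p under 0.05). SESN1 turned to -0.037 without control 2 (range to 0.068). The replicate block gave 0 genes (2177 unadjusted). Same-numbered libraries deviated with correlations of 0.56 in DLD-1, -0.82 in HCT116 and -0.69 at baseline. With 2 pairs each and no label of a shared batch, the numbers were not taken to pair libraries. Crossed replicate numbers, chosen after seeing the data, gave 1808 of 15273 genes and 3 targets in HCT116. They were also fitted at baseline, where the counts are not reported here. The cause of these changes was not tested.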
